A study of Mus musculus with 6 samples.

Results

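The genes described here encode the enzymes that conjugate drugs, hormones, bile pigments and reactive products of metabolism in the liver: the UDP-glucuronosyltransferases (UGT), the sulfotransferases (SULT), the glutathione S-transferases (GST) and the microsomal glutathione S-transferases (MGST). They were taken by name as every protein coding gene of the deposited expression table whose symbol begins with *Ugt1a*, *Ugt2a*, *Ugt2b*, *Ugt3a*, *Sult*, *Gst* followed by a letter, or *Mgst*. This gave 69 of the 57180 genes in the table, of which 21 were UGT, 21 SULT, 24 GST and 3 MGST genes. RNA was sequenced from primary hepatocytes of male mice, 3 libraries labelled STING Loxp and 3 labelled STING LKO. STING LKO mice carry a floxed *Sting1* gene, which encodes the innate immune adaptor STING, deleted by Cre under the Albumin promoter, that is, in hepatocytes, and STING Loxp mice carry the floxed gene and serve as controls. For the study as a whole, the mice are described as males on a C57BL/6 background, aged 8 to 10 weeks. The hepatocytes of both groups were cultured in MEM alpha with 0.1 μM dexamethasone and fetal bovine serum and received 0.1 mM palmitic acid, a saturated fatty acid, for 24 h. Both groups were thus treated, and the comparison is between genotypes under palmitic acid and dexamethasone. The labels do not say whether the 3 libraries of a group came from separate mice, so p-values measure the spread between these libraries, which may be technical.

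Counted reads ran from 14726983 to 18536985 per library, of which 3.86% to 4.65% fell in mitochondrial genes and 0.289% to 0.322% in the 69 conjugation genes. Counts were scaled to a common library size with TMM factors (normalized CPM), and 14151 genes passed edgeR's filter on low counts and were compared by its quasi-likelihood test with Benjamini-Hochberg adjustment. Fold changes are those of STING LKO relative to STING Loxp, and a gene is said to have risen or fallen where its adjusted p was under 0.05. Values of single libraries are given in the order of replicates 1, 2 and 3. *Sting1* had 19, 16 and 23 counts in the STING Loxp libraries and 24, 23 and 15 counts in the STING LKO libraries. Its log2 fold change was -0.08 (SE 0.298, adjusted p = 0.883), so the counts of the targeted gene did not differ between the labels beyond their spread. The part of the gene that Cre removes is not given in the sources used here, so these counts may include reads from outside it. The study also measured the transcript by RT-PCR, which is not analysed here, and reported it present in hepatocytes and lost in knockout cells. Directions are those of libraries as labelled.

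Conjugation makes a fat-soluble molecule more soluble in water so that it can be exported into bile or blood. UGTs sit in the endoplasmic reticulum and attach glucuronic acid from UDP-glucuronate, SULTs are mostly cytosolic and attach sulfate from the donor PAPS (3'-phosphoadenosine 5'-phosphosulfate), and GSTs attach glutathione to electrophiles such as the aldehydes formed when membrane lipids are oxidized. In hepatocytes these genes are among the textbook targets of the receptors AHR, CAR and PXR, of the oxidant-responsive factor NRF2 and of liver factors such as HNF1 and HNF4.

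Of the 69 genes, 14 had no count in any library, 8 had at most 14 counts in a library and were not tested, and 47 were tested. Of the 47, 12 fell and 5 rose. That is 25.5% lower and 10.6% higher, where over all tested genes 11.6% were lower and 11.5% were higher. The median log2 fold change was -0.19 over the 47 genes and -0.002 over all tested genes. The groups did not overlap for 32 of the 47 genes (68.1%), 21 of them lower and 11 higher in STING LKO, where the groups did not overlap for 40.7% of all tested genes. The study also asked for a log2 fold change beyond 1 in either direction and for a mean level, in FPKM, over 1 in a group. FPKM is the deposited level scaled to gene length and library depth. By these criteria 3 genes were lower (*Gstp3*, *Sult1a1* and *Gstm3*) and 0 were higher. Over all tested genes these criteria called 1.49% lower and 0.558% higher. The count of genes called higher was 3 without STING Loxp replicate 3, STING LKO replicate 1 or STING LKO replicate 3, and from 9 to 12 genes were called lower without any 1 library. The 30 tested genes that passed no threshold had log2 fold changes from -0.88 to 0.51. In these bulk libraries, fewer cells that express a gene and less RNA of it per cell cannot be told apart.

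**Figure D1:**
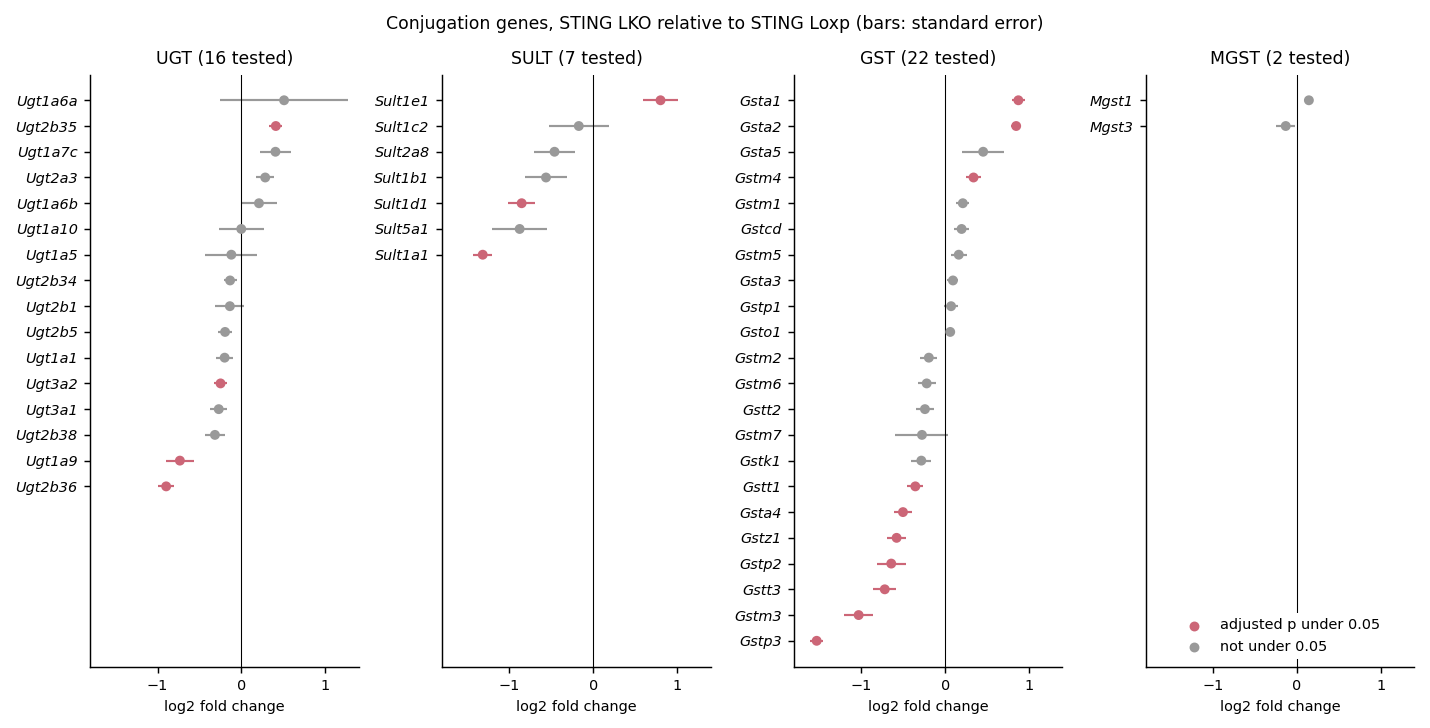
Log2 fold change of each of the 47 tested conjugation genes in STING LKO relative to STING Loxp, in 1 panel per family, with horizontal bars for the standard error and red points for an adjusted p under 0.05. *Gstp3* and *Sult1a1* lie farthest to the left and *Gsta1*, *Gsta2* and *Sult1e1* farthest to the right among the red points.

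Summed over its genes, the SULT family had the largest change of the 4 families as a ratio, while in normalized CPM the GST sum changed by more. The 21 SULT genes summed to 133, 129 and 143 normalized CPM in the STING Loxp libraries and to 73.9, 64.2 and 62.7 in the STING LKO libraries. The groups did not overlap, and the mean of 66.9 ± 6.11 was 0.495 of the STING Loxp mean of 135 ± 7.46 (SD, n = 3 per group). The 21 UGT genes summed to 609 ± 27.7 normalized CPM in STING Loxp and 562 ± 12.4 in STING LKO, a ratio of 0.923, without overlap on this scale but with overlap when FPKM was summed. The 24 GST genes summed to 1802 ± 85.4 in STING Loxp and 2027 ± 58.6 in STING LKO, a ratio of 1.13 without overlap, and the 3 MGST genes to 426 ± 6.05 and 467 ± 9.06, a ratio of 1.10 without overlap. *Gsta1* and *Gsta2* together went from 277 ± 14.1 to 505 ± 33.5 normalized CPM. Without them the other 22 GST genes summed to 1524 ± 88.8 and 1522 ± 90.8, and their groups overlapped. No test was made of these sums.

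**Figure D2:**
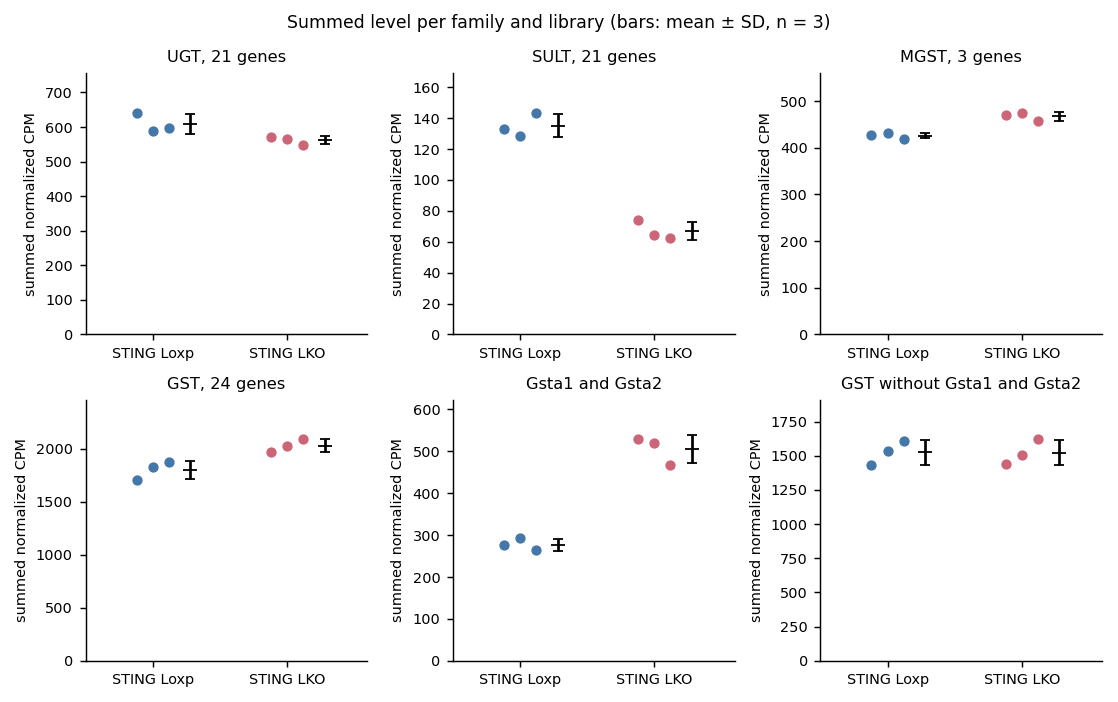
Summed normalized CPM of each family in each library, for UGT, SULT, MGST and GST genes, for *Gsta1* with *Gsta2*, and for the GST genes without these, with points for libraries and bars for the mean ± SD (n = 3 per group). The 3 STING LKO libraries lie between 62.7 and 73.9 for SULT, below all STING Loxp libraries, while the GST sums without *Gsta1* and *Gsta2* overlap.

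Among the sulfotransferases, *Sult1a1*, the main liver sulfotransferase for phenols, fell to 0.401 of its control level, and the family's second most abundant gene fell with it. *Sult1a1* (ENSMUSG00000030711, chr7:126272037-126275604 on GRCm39, as the table lists positions) measured 76.5, 89.3 and 100.3 normalized CPM in the STING Loxp libraries and 38.4, 35.6 and 32.7 in the STING LKO libraries. All 3 STING LKO libraries were below all STING Loxp libraries, and *Sult1a1* fell by 1.32 on the log2 scale (SE 0.110, adjusted p = 1.63e-04). It made up 68.8% ± 6.38 of the family's summed FPKM, a level per gene length, in STING Loxp and 54.2% ± 2.11 in STING LKO. The sum of the other 20 SULT genes went from 46.3 ± 9.17 to 31.4 ± 3.66 normalized CPM, without overlap on this scale. When FPKM was summed over these 20 genes, the groups overlapped. The 250 bases before the start of *Sult1a1* are shown because it carried most of the change in the family (RefSeq, GRCm38.p6, chr7:126676419-126676668, minus strand). Capitals mark the hexamer GTTAAT, a part of the binding site of HNF1, which lies from 232 to 227 bases before the start.

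*Sult1a1*: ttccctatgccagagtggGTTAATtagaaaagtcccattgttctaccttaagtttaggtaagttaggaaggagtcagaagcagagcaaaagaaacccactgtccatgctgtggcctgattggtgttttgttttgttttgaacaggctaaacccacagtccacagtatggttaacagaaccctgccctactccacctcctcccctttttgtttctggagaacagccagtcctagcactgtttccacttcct

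*Sult1d1*, which sulfates catecholamines and other phenols, measured 39.8, 26.3 and 27.98 normalized CPM in the STING Loxp libraries and 18.9, 16.3 and 17.0 in the STING LKO libraries. The groups did not overlap, STING Loxp replicate 1 stood above the other two, and the gene fell by 0.85 on the log2 scale (SE 0.158, adjusted p = 0.00635). *Sult1e1*, the estrogen sulfotransferase, moved the other way. It measured 2.46, 3.29 and 2.96 normalized CPM in the STING Loxp libraries and 6.25, 4.32 and 4.67 in the STING LKO libraries. It was higher in all STING LKO libraries, with a log2 fold change of 0.80 (SE 0.209, adjusted p = 0.0263), and its share of the family's summed FPKM went from 4.24% ± 0.653 to 14.4% ± 1.63. This call was lost without STING Loxp replicate 1 (adjusted p = 0.0711), STING Loxp replicate 3 (0.0659), STING LKO replicate 1 (0.0838) or STING LKO replicate 3 (0.0507). *Sult1d1* and *Sult1e1* lie next to *Sult1b1* on chromosome 5, from 87661198 to 87739453 over the 3 genes, and of the 3 neighbours 1 fell, 1 rose and 1 did not pass the test.

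The remaining SULT genes were low. *Sult1b1*, a thyroid hormone sulfotransferase, measured 3.85, 2.31 and 2.37 normalized CPM in the STING Loxp libraries and 1.85, 1.89 and 2.04 in the STING LKO libraries. Its groups did not overlap, but its log2 fold change of -0.56 (SE 0.255) had an adjusted p of 0.152. *Sult5a1* measured 1.77, 1.75 and 2.57 normalized CPM in the STING Loxp libraries and 1.47, 0.701 and 1.17 in the STING LKO libraries, with a log2 fold change of -0.88 (SE 0.324, adjusted p = 0.0878). *Sult2a8*, a sulfotransferase of the hydroxysteroid branch, and *Sult1c2* had log2 fold changes of -0.46 (adjusted p = 0.208) and -0.17 (adjusted p = 0.777), with overlapping groups. Of the 9 SULT2 genes, *Sult2a8* alone was tested. *Sult2a1*, *Sult2a3*, *Sult2a4*, *Sult2a5* and *Sult2a6* had 0 counts in all 6 libraries, and so had *Sult1c1*, *Sult3a1*, *Sult3a2*, *Sult6b1* and *Sult6b2*. *Sult2a2* had 3 counts over the 6 libraries, *Sult2a7* had 3 in STING LKO replicate 3 alone, and *Sult4a1*, a brain sulfotransferase, had at most 6 in a library. *Sult2b1*, a cholesterol sulfotransferase, had 0 counts in each STING Loxp library and 3, 1 and 6 in the STING LKO libraries, too few for a fold change.

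**Figure D3:**
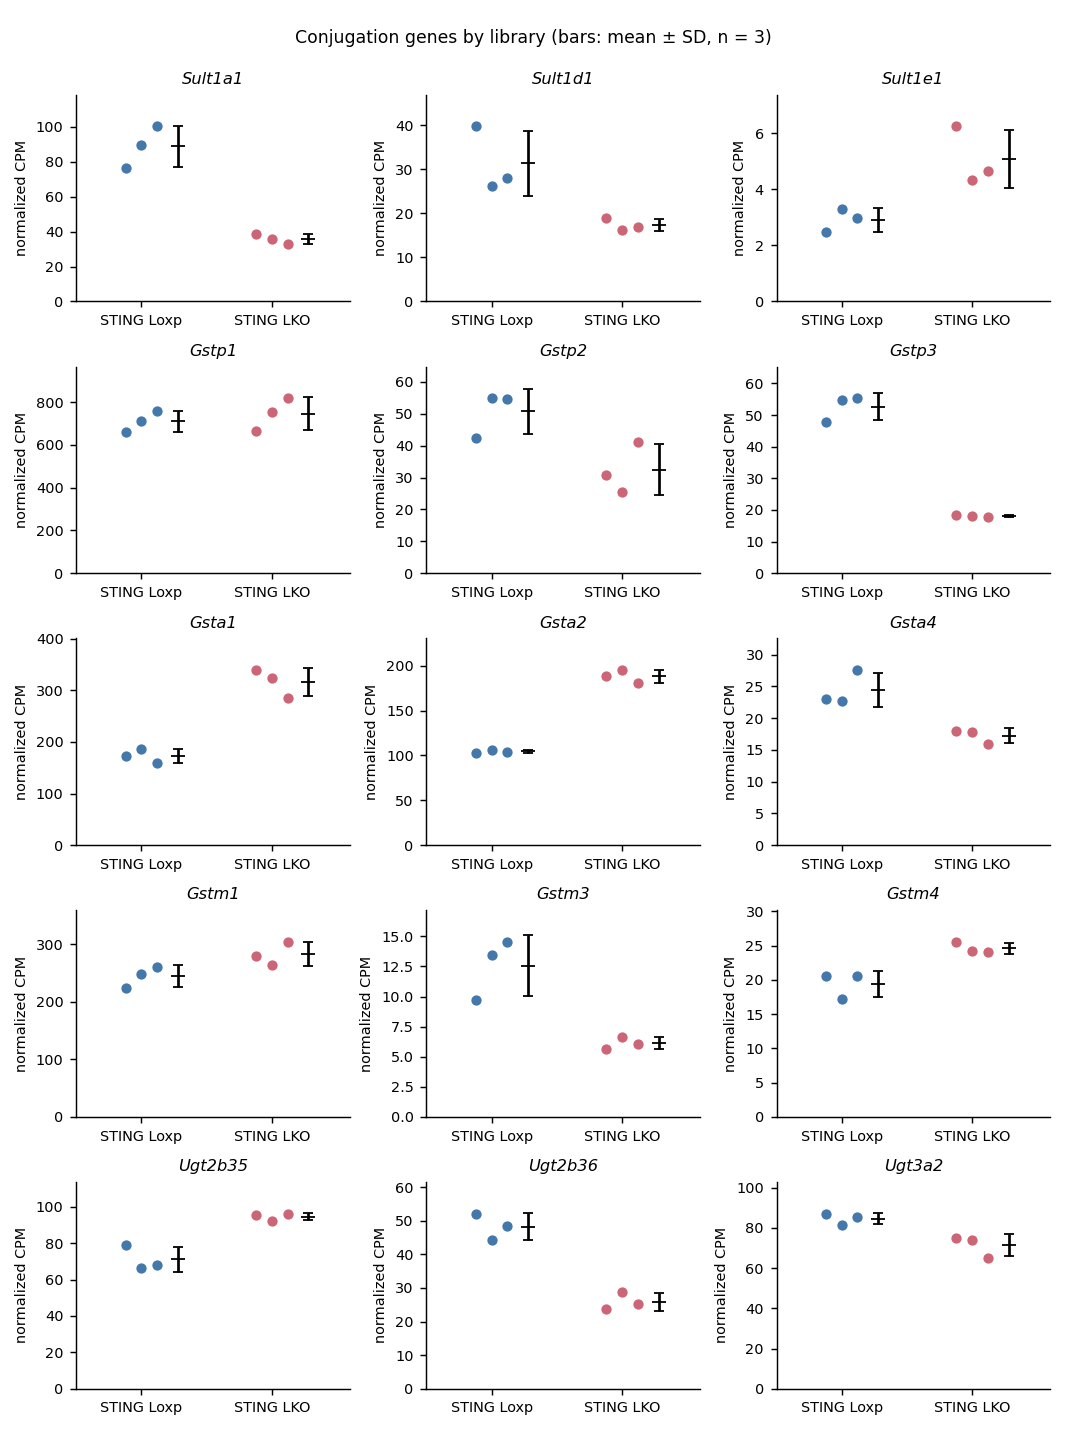
Normalized CPM in each library for 15 conjugation genes, with points for libraries and bars for the mean ± SD (n = 3 per group). *Gstp3* lies between 17.9 and 18.4 in the 3 STING LKO libraries and at 47.9 or above in STING Loxp, while *Gstp1*, on the same chromosome, overlaps between the groups.

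The glutathione transferases moved in both directions. Of the 22 tested, 7 fell (31.8%) and 3 rose (13.6%), where 11.6% of all tested genes were lower and 11.5% higher, so the share that rose was near that of all genes. In the alpha class, whose enzymes handle lipid peroxides and aldehydes, *Gsta1* and *Gsta2* rose about 1.8-fold while *Gsta4* fell. *Gsta1* (ENSMUSG00000074183, chr9:78137938-78149966) measured 172, 186 and 160.0 normalized CPM in the STING Loxp libraries and 339.8, 324 and 286 in the STING LKO libraries. *Gsta2* (ENSMUSG00000057933, chr9:78238300-78263070) measured 103, 106 and 104 normalized CPM in the STING Loxp libraries and 189, 195 and 180.4 in the STING LKO libraries. Neither gene overlapped between the groups, and *Gsta1* had a log2 fold change of 0.87 (SE 0.0812, adjusted p = 2.68e-04). The log2 fold change of *Gsta2* was 0.85 (SE 0.0560, adjusted p = 5.17e-05). *Gsta1* went from 22.3% ± 1.87 to 33.2% ± 2.73 of the family's summed FPKM and *Gsta2* from 10.5% ± 0.353 to 15.4% ± 0.532. *Gsta4*, the enzyme with the highest activity towards 4-hydroxynonenal, a product of lipid peroxidation, had 24.4 ± 2.74 normalized CPM in STING Loxp and 17.2 ± 1.14 in STING LKO and fell by 0.50 in log2 (adjusted p = 0.0114). *Gsta3* had a log2 fold change of 0.09 (adjusted p = 0.353), and *Gsta5*, at 1.23 ± 0.219 and 1.69 ± 0.129 normalized CPM, of 0.45 (adjusted p = 0.231).

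The 2 genes that rose are close copies, so the reads assigned to each depend on the counting, which the sources used here do not describe. Their longest GENCODE transcripts were identical at 97.2% of 870 aligned bases, and *Gsta2* and *Gsta5* at 98.3%. Of the 50-base windows of the *Gsta1* transcripts, 90.5% also occurred in a transcript of another gene, and 49.8% of those of *Gsta2* did. Outside the conjugation genes, both shared most windows with *Gm3776*, a protein coding gene of the same cluster whose name the selection does not include. *Gm3776* was looked at after its values were seen (chr9:78164411-78176448). It had 1377, 1241 and 1258 counts in the STING Loxp libraries and 2396, 2471 and 2355 in the STING LKO libraries, and its log2 fold change was 0.72 (SE 0.0689, adjusted p = 3.05e-04). The sum of *Gsta1*, *Gsta2*, *Gsta5* and *Gm3776* was 364 ± 15.9 normalized CPM in STING Loxp and 648 ± 39.2 in STING LKO, a ratio of 1.78. This sum does not depend on how shared reads were divided among the genes, but it does depend on whether such reads were dropped. Before their starts the genes differ more. The 250 bases upstream of *Gsta1* and *Gsta2* were identical at 77.0% of 239 aligned bases and are shown because these 2 genes moved together (RefSeq, GRCm38.p6; *Gsta1* chr9:78230419-78230668, plus strand, and *Gsta2* chr9:78347146-78347395, minus strand). Capitals mark TTCNNNGAA, a STAT-type palindrome, from 162 to 154 bases before the start in *Gsta1*, and GCGTG, the core that AHR binds, from 7 to 3 bases before the start in *Gsta2*.

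*Gsta1*: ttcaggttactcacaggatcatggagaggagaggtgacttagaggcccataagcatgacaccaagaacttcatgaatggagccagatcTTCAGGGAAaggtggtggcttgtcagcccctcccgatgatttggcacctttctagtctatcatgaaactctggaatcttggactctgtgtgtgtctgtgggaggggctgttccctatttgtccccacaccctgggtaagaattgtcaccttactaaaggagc
*Gsta2*: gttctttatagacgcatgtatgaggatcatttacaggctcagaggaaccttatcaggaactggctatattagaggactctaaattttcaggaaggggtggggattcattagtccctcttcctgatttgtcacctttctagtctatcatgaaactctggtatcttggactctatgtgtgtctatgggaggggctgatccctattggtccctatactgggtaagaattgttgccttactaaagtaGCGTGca

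In the pi class, *Gstp3* fell more than any other conjugation gene while *Gstp1*, of the same cluster, overlapped between the groups. *Gstp3* (ENSMUSG00000058216, chr19:4107477-4109569) measured 47.9, 54.8 and 55.4 normalized CPM in the STING Loxp libraries and 18.4, 18.2 and 17.9 in the STING LKO libraries. The STING LKO libraries were nearly equal to each other and 2.90-fold below the STING Loxp mean, and the gene fell by 1.53 on the log2 scale (SE 0.0815, adjusted p = 1.82e-05). *Gstp1* (ENSMUSG00000060803, chr19:4085407-4087985) measured 660.4, 711 and 760.0 normalized CPM in the STING Loxp libraries and 665, 754 and 819 in the STING LKO libraries. Its log2 fold change was 0.07 (SE 0.0830, adjusted p = 0.592). *Gstp2* (ENSMUSG00000038155, chr19:4090285-4096023) measured 42.5, 54.9 and 54.7 normalized CPM in the STING Loxp libraries and 30.7, 25.5 and 41.2 in the STING LKO libraries. It fell by 0.64 on the log2 scale (SE 0.174, adjusted p = 0.0300), a call that was lost without STING Loxp replicate 2 (adjusted p = 0.0739), STING Loxp replicate 3 (0.0908), STING LKO replicate 1 (0.0934) or STING LKO replicate 2 (0.0855).

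The 3 pi genes lie side by side on chromosome 19 in the order *Gstp1*, *Gstp2*, *Gstp3*. None of the 50-base windows of *Gstp3* occurred in another gene, whereas 54.3% of those of *Gstp2* and 33.7% of those of *Gstp1* did. The longest transcripts of *Gstp1* and *Gstp2* were identical at 95.7% of the aligned bases and those of *Gstp1* and *Gstp3* at 72.9%. *Gstp1* and *Gstp2* summed to 761 ± 56.1 normalized CPM in STING Loxp and 778 ± 82.1 in STING LKO. The 250 bases upstream were identical at 88.5% between *Gstp1* and *Gstp2* and at 60.4% between *Gstp1* and *Gstp3*. Those of *Gstp1* and *Gstp3*, between which *Gstp2* lies, are shown because they differed most in fold change among the 3 (RefSeq, GRCm38.p6, minus strand, *Gstp1* chr19:4037913-4038162 and *Gstp3* chr19:4059448-4059697). Capitals mark GCGTG, which lies from 13 to 9 bases before the start in *Gstp1* and from 235 to 231 bases before it in *Gstp3*.

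*Gstp1*: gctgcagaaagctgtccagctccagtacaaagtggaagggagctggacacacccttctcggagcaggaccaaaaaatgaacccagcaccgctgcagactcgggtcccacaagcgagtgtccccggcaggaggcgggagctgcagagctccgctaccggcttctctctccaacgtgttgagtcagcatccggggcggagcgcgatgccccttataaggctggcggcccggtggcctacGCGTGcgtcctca
*Gstp3*: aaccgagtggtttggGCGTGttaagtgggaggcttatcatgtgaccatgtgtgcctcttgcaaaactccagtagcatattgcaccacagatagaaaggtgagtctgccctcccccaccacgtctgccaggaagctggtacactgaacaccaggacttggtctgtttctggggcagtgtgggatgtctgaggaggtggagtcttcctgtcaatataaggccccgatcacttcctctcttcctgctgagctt

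In the mu class, *Gstm3* fell and *Gstm4* rose, and the most abundant member, *Gstm1*, did not pass the test. *Gstm3* (chr3:107871012-107876599) measured 9.72, 13.4 and 14.6 normalized CPM in the STING Loxp libraries and 5.67, 6.64 and 6.06 in the STING LKO libraries. The groups did not overlap, and *Gstm3* fell by 1.03 on the log2 scale (SE 0.170, adjusted p = 0.00364). Of its 50-base windows 28.8% occurred in another gene, most often in *Gstm1* among the conjugation genes. *Gstm1* had 244 ± 19 normalized CPM in STING Loxp and 282 ± 20.6 in STING LKO, without overlap, and a log2 fold change of 0.21 (SE 0.0762, adjusted p = 0.0825). *Gstm4* had 19.4 ± 1.88 and 24.6 ± 0.833 normalized CPM and a log2 fold change of 0.34 (adjusted p = 0.0346). The *Gstm4* call was lost without STING Loxp replicate 2 (adjusted p = 0.0932) or 3 (0.0513) and without STING LKO replicate 1 (0.109), 2 (0.0894) or 3 (0.0741). *Gstm2*, *Gstm5*, *Gstm6* and *Gstm7* had log2 fold changes from -0.28 to 0.16, none past the test.

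In the theta class 2 of 3 tested genes fell and in the zeta class 1 of 1, where 11.6% of all tested genes were lower. *Gstt3* measured 10.5, 10.0 and 11.3 normalized CPM in the STING Loxp libraries and 5.42, 6.80 and 6.998 in the STING LKO libraries, and it fell by 0.72 on the log2 scale (SE 0.139, adjusted p = 0.00767). *Gstt1*, which acts on small halogenated compounds, had 36.9 ± 3.59 and 28.8 ± 1.86 normalized CPM and fell by 0.36 (adjusted p = 0.0270), but not without STING Loxp replicate 2 (adjusted p = 0.0634) or 3 (0.0859) or without STING LKO replicate 1 (0.100), 2 (0.0751) or 3 (0.0504). *Gstt2* had a log2 fold change of -0.24 (adjusted p = 0.142), which passed the test without STING Loxp replicate 1 (adjusted p = 0.0330). *Gstt4* had 0 counts in all 6 libraries. *Gstz1*, which is also maleylacetoacetate isomerase in the breakdown of tyrosine, had 29.3 ± 1.86 normalized CPM in STING Loxp and 19.6 ± 2.78 in STING LKO and fell by 0.58 in log2 (adjusted p = 0.00823). The mitochondrial *Gstk1* had a log2 fold change of -0.28 (adjusted p = 0.122, and 0.0393 without STING LKO replicate 1), and *Gstcd*, named for its GST-like domain, of 0.20 (adjusted p = 0.148). *Gsto1*, an omega class enzyme, stood at 113 ± 0.928 and 118 ± 3.16 normalized CPM, with a log2 fold change of 0.06 (adjusted p = 0.480), and *Gsto2* had at most 2 counts in a library.

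The microsomal transferases were carried by *Mgst1*, which detoxifies lipid peroxides at the endoplasmic reticulum and the outer mitochondrial membrane and took 87.4% ± 0.847 of the family's summed FPKM in STING Loxp. *Mgst1* measured 415, 417 and 405 normalized CPM in the STING Loxp libraries and 457, 461 and 446 in the STING LKO libraries. It was higher in all STING LKO libraries, but its log2 fold change of 0.14 (SE 0.0447) had an adjusted p of 0.0534. With limma-trend on FPKM it passed the threshold (adjusted p = 0.0187 with a pseudocount of 1 and 0.0200 with 0.1). *Mgst3* measured 12.3, 14.1 and 13.8 normalized CPM in the STING Loxp libraries and 12.4, 13.2 and 10.9 in the STING LKO libraries, with a log2 fold change of -0.14 (SE 0.115, adjusted p = 0.449). *Mgst2* had 0 counts in all 6 libraries.

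The UGT1A genes are alternative first exons of 1 locus on chromosome 1, each spliced to the same last exons. The table lists them as 9 genes from 87983110 to 88147724, of which 5 end at the same base, 88146719, and from 52.1% to 79.8% of the 50-base windows of each gene occurred in another of them. *Ugt1a1*, the enzyme that glucuronidates bilirubin, was the most abundant UGT gene per gene length, with a mean FPKM of 43.6 in STING Loxp and 39.0 in STING LKO. It measured 97.4, 100.4 and 97.0 normalized CPM in the STING Loxp libraries and 91.8, 72.1 and 93.1 in the STING LKO libraries. All STING LKO values were lower, with replicate 2 the lowest, but the log2 fold change of -0.20 (SE 0.0986) had an adjusted p of 0.188. *Ugt1a9* measured 34.3, 24.97 and 25.5 normalized CPM in the STING Loxp libraries and 18.9, 13.4 and 18.8 in the STING LKO libraries. It did not overlap between the groups and fell by 0.73 on the log2 scale (SE 0.169, adjusted p = 0.0165).

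The count of *Ugt1a6a*, an enzyme for small phenols, depended on 1 library, and the gene is named after its values were seen. It measured 14.96, 10.0 and 9.42 normalized CPM in the STING Loxp libraries and 4.08, 39.8 and 4.72 in the STING LKO libraries. STING LKO replicate 2 was the highest of all 6 libraries and the other two STING LKO libraries were the lowest. With all libraries the log2 fold change was 0.51 (SE 0.762, adjusted p = 0.680). Leaving out STING LKO replicate 2 gave -1.38 (adjusted p = 0.0113). *Ugt1a6b* had 16.5 ± 5.91 and 19.1 ± 1.89 normalized CPM (adjusted p = 0.538, and 0.0247 without STING Loxp replicate 2). *Ugt1a7c* had 11.5 ± 2.55 and 15.2 ± 2.71 (adjusted p = 0.150, which became 0.0443 when STING Loxp replicate 2 was left out). The log2 fold changes of *Ugt1a5* and *Ugt1a10* were -0.12 (adjusted p = 0.824) and -0.00053 (adjusted p = 0.999). *Ugt1a2* had at most 1 count in a library. *Ugt1a8* was at 0 in 4 libraries, at 5 counts in STING Loxp replicate 1 and at 8 in STING LKO replicate 2. Summed over the 9 genes, the locus gave 180.5, 182 and 174 normalized CPM in the STING Loxp libraries and 166, 167 and 162 in the STING LKO libraries. In normalized CPM the sum varied less between libraries than its genes did, and STING LKO replicate 2 did not stand apart in it. All STING LKO sums were below all STING Loxp sums, with a ratio of 0.924. In summed FPKM, STING LKO replicate 2 was the lowest, at 57.1 beside 66.2 and 64.8 in the other STING LKO libraries. The STING Loxp libraries ran from 68.7 to 71.9 in summed FPKM.

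**Figure D4:**
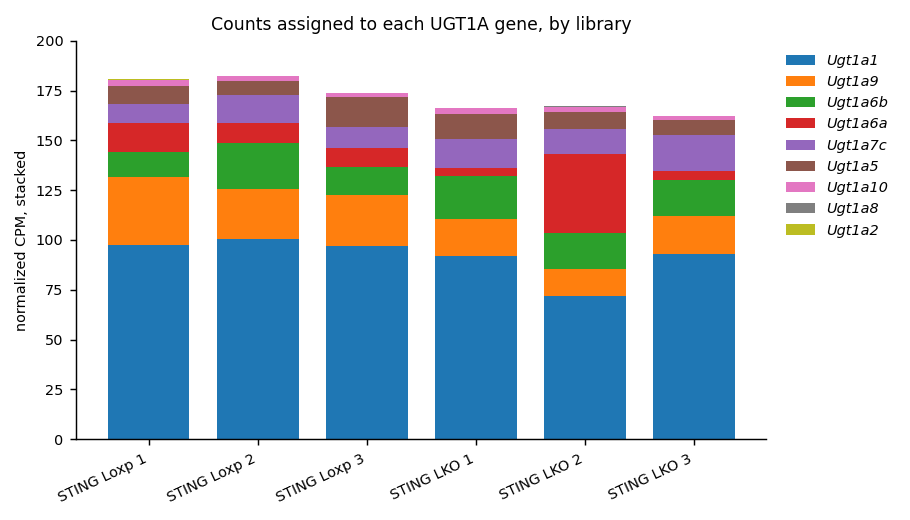
Normalized CPM assigned to each of the 9 UGT1A genes, stacked, in each of the 6 libraries. The stacks reach from 162 to 182, and STING LKO replicate 2 has 39.8 of *Ugt1a6a* against 4.08 and 4.72 in the other two STING LKO libraries.

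In the UGT2B cluster on chromosome 5, which glucuronidates steroids, bile acids and drugs, neighbouring genes changed in opposite directions. *Ugt2b36* (ENSMUSG00000070704, chr5:87213786-87240414) measured 52.1, 44.2 and 48.5 normalized CPM in the STING Loxp libraries and 23.6, 28.9 and 25.2 in the STING LKO libraries. It fell by 0.90 on the log2 scale (SE 0.0984, adjusted p = 5.61e-04). *Ugt2b35* (ENSMUSG00000035811, chr5:87148719-87161134), which precedes it on the chromosome, measured 78.8, 66.4 and 67.9 normalized CPM in the STING Loxp libraries and 95.2, 92.4 and 96.2 in the STING LKO libraries. It rose, with a log2 fold change of 0.41 (SE 0.0785, adjusted p = 0.00733). Neither gene overlapped between the groups. Their longest transcripts were identical at 86.25% of the aligned bases, yet 0.303% of the 50-base windows of *Ugt2b35* and 0.285% of those of *Ugt2b36* occurred in another gene.

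*Ugt2b5* measured 58.0, 55.5 and 61.0 normalized CPM in the STING Loxp libraries and 56.0, 47.8 and 48.8 in the STING LKO libraries. The groups overlapped, with a log2 fold change of -0.19 (SE 0.0822, adjusted p = 0.129). *Ugt2b38* measured 12.5, 10.9 and 11.2 normalized CPM in the STING Loxp libraries and 8.54, 9.93 and 9.33 in the STING LKO libraries. It did not overlap, but its log2 fold change of -0.31 (SE 0.116) had an adjusted p of 0.0878, and 37.4% of its windows occurred in another gene, most often in *Ugt2b5*. *Ugt2b34* and *Ugt2b1* had log2 fold changes of -0.13 (adjusted p = 0.254) and -0.14 (adjusted p = 0.619), and *Ugt2b37* had from 3 to 14 counts per library. The 7 UGT2B genes summed to 321 ± 26.0 normalized CPM in STING Loxp and 300.5 ± 5.44 in STING LKO, with overlap. Of the UGT2A genes, *Ugt2a1* and *Ugt2a2*, the olfactory forms, had 0 counts. *Ugt2a3* had 11.8 ± 1.19 and 14.4 ± 0.417 normalized CPM (log2 fold change 0.29, adjusted p = 0.0962, and 0.0416 and 0.0398 with limma-trend on FPKM with a pseudocount of 1 and 0.1). Of the UGT3A genes, which use sugars other than glucuronic acid, *Ugt3a2* measured 87.2, 81.5 and 85.3 normalized CPM in the STING Loxp libraries and 75.1, 73.8 and 65.1 in the STING LKO libraries. It fell by 0.25 on the log2 scale (SE 0.0747, adjusted p = 0.0452), and without any 1 of the 6 libraries its adjusted p lay from 0.0618 to 0.130. *Ugt3a1* had a log2 fold change of -0.27 (adjusted p = 0.0995), without overlap.

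The promoters were read for 5 short motifs over the 250 bases before each start, on both strands. The RefSeq table held 73 promoters of 60 of the 69 genes, and 32851 promoters in all. GTTAAT, the hexamer marked in *Sult1a1*, was in 19.2% of the conjugation gene promoters and in 6.43% of all promoters. It was found in 14 genes, among them *Sult1a1*, *Sult1d1* and *Ugt1a9*, which fell, and *Sult2a3*, *Sult2a4*, *Sult2a5* and *Sult2a6*, which had 0 counts. Of the 9 that were tested, 3 fell and 0 rose, beside 12 and 5 of all 47 tested conjugation genes and 11.6% lower and 11.5% higher over all tested genes, and nothing is read from so few genes. AGGTCA, the hexamer bound by nuclear receptors, was in 15.1% and 14.02%. It was found in 11 genes, of which 3 were SULT genes, 1 was a GST gene and 7 were UGT genes. Of the UGT genes 5 were UGT2B genes, *Ugt2b35* and *Ugt2b36* included. Of the 10 genes with AGGTCA that were tested, 2 fell and 2 rose, beside the same shares over all tested genes. GCGTG was in 17.8% of the conjugation gene promoters and 28.2% of all promoters, TGACNNNGC, the core of the antioxidant response element that NRF2 binds, in 5.48% and 10.2%, and TTCNNNGAA in 5.48% and 7.02%. TGACNNNGC was found in *Gsta3*, *Gstm5*, *Gstm7* and *Mgst1*, none of which passed the test. The motifs do not overlap each other in the promoters shown, a match is a description of letters and not of binding, and sites outside these 250 bases were not read.

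Around the enzymes, the genes listed for glutathione supply and for conjugate export were mostly higher and those listed for sulfate supply lower among the genes that passed the test. For glutathione, 5 of 11 tested genes rose and 1 fell, where 11.5% of all tested genes were higher and 11.6% lower. The list also holds genes that break glutathione down, none of which passed the test. *Gclc*, the catalytic subunit of the enzyme that limits glutathione synthesis, went from 442 ± 35.1 to 825 ± 39.2 normalized CPM (log2 fold change 0.90, SE 0.0681, adjusted p = 9.05e-05). Its partner *Gclm* had a log2 fold change of 0.75 (adjusted p = 0.00123) and *Slc7a11*, which imports cystine, of 1.22 (adjusted p = 2.47e-04). For PAPS and the sulfate that feeds it, 4 of 11 tested genes fell and 0 rose. This list also holds a gene that turns cysteine towards taurine, which did not pass the test. *Cdo1* and *Suox*, which turn cysteine towards sulfate, fell by 0.86 (adjusted p = 1.79e-04) and 0.67 (adjusted p = 0.00181) on the log2 scale, and the PAPS synthase *Papss1* fell by 0.47 (adjusted p = 0.00959). *Papss2*, the other PAPS synthase, stood at 61.1 ± 4.38 and 62.3 ± 2.12 (log2 fold change 0.03, adjusted p = 0.837).

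The counts in the short lists that follow stand beside 11.5% higher and 11.6% lower over all tested genes. For UDP-glucuronate, 1 of 6 tested genes rose and 2 fell, and the list also holds a gene that consumes UDP-glucuronate, which did not pass. *Ugdh*, which makes UDP-glucuronate, had a log2 fold change of 0.45 (adjusted p = 0.0114), while *Ugp2*, which makes its precursor UDP-glucose, fell by 0.51 (adjusted p = 0.00834) and *Slc35d1*, which carries UDP-glucuronate into the endoplasmic reticulum, fell by 0.49 (adjusted p = 0.0116). Of the 7 conjugate exporters 6 rose and 1 fell. The largest changes among the exporters were those of *Abcc6* (log2 fold change 1.91, adjusted p = 1.92e-04), *Abcc4* (1.64, adjusted p = 5.17e-05) and *Abcc1* (0.99, adjusted p = 0.00647). These were low, with a mean FPKM of 0.836, 6.50 and 2.39 in that order. The summed FPKM of the 7 exporters ran from 131 to 138 in STING Loxp and from 158 to 170 in STING LKO. In the mercapturate pathway, which trims glutathione conjugates, 5 of 13 tested genes fell and 1 rose. *Nat8f2*, of the N-acetyltransferase family, fell by 2.31 (adjusted p = 2.92e-04) and *Ggt6*, a gamma-glutamyltransferase, by 0.97 (adjusted p = 0.00265), and *Kyat3* had a log2 fold change of 0.65 (adjusted p = 8.11e-04). Of 5 deconjugating enzymes tested, the sulfatase *Arsg* fell by 0.88 (adjusted p = 2.00e-04) and no other passed.

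Among 28 tested regulators of conjugation genes, 8 fell and 2 rose. Over all tested genes 11.6% were lower and 11.5% higher, beside which this count and those of the target lists below stand. *Ahr*, the dioxin receptor, went from 59.4 ± 3.66 to 29.2 ± 1.44 normalized CPM and fell by 1.02 (SE 0.0764, adjusted p = 8.81e-05), and *Nr1i2*, which encodes PXR, went from 24.3 ± 3.54 to 9.38 ± 1.42 and fell by 1.37 (SE 0.146, adjusted p = 4.97e-04). *Rora* fell by 0.93 (adjusted p = 1.50e-04) and *Hnf4a* by 0.59 (adjusted p = 3.38e-04). *Nr1i3*, which encodes CAR, was at 1.83 ± 0.113 and 1.19 ± 0.415 normalized CPM (adjusted p = 0.159). *Nfe2l2*, which encodes NRF2, was at 212 ± 23.3 and 187 ± 4.67 (log2 fold change -0.18, adjusted p = 0.135). Of 17 other NRF2 target genes, 10 rose and 1 fell, with a median log2 fold change of 0.32. Among these *Srxn1* had a log2 fold change of 1.38 (adjusted p = 2.86e-06), *Pgd* of 0.69 (adjusted p = 3.46e-04) and *Txnrd1* of 0.55 (adjusted p = 2.24e-04). Of 10 other CAR and PXR target genes tested, 8 fell and 1 rose, with a median of -0.35, and *Cyp2a5* fell by 0.67 (adjusted p = 3.97e-04), *Alas1* by 0.56 (adjusted p = 5.23e-04) and *Cyp3a11* by 0.35 (adjusted p = 0.00247). Of 5 other AHR target genes tested, *Cyp1a2* fell by 0.52 (adjusted p = 0.00595) and 3 rose, among them *Nqo1* (log2 fold change 1.08, adjusted p = 6.16e-04), which is on the NRF2 list too, and *Ugdh*. Other genes are shared between lists as well, so the lists are not independent. The NRF2 target that fell is also counted among the CAR and PXR targets that fell. The CAR and PXR target that rose is also counted among the exporters.

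**Figure D5:**
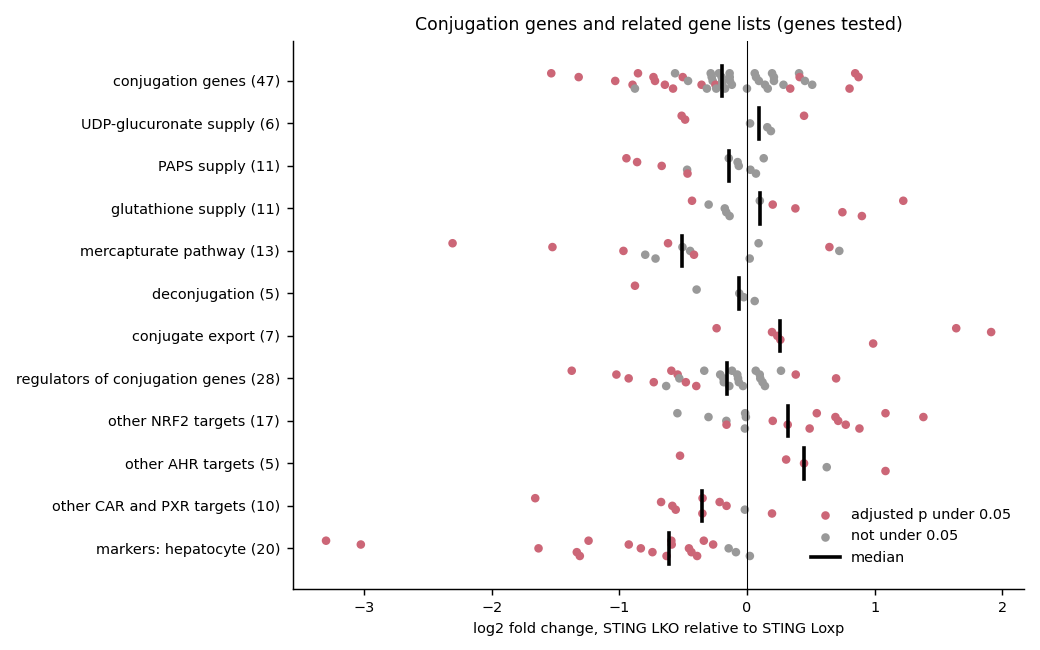
Log2 fold changes of the tested conjugation genes and of related gene lists, with 1 point per gene, red for an adjusted p under 0.05, and a black line at each list's median. The medians are -0.19 for the 47 conjugation genes, 0.32 for the other NRF2 targets, -0.35 for the other CAR and PXR targets and -0.61 for the hepatocyte markers.

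Several conjugation genes are expressed differently in male and female liver, so sex-biased genes were read beside them. Of 14 male-biased liver genes tested 4 fell and 3 rose, where 11.6% of all tested genes were lower and 11.5% higher. *Selenbp2* fell by 3.11 (adjusted p = 6.26e-07) and *Serpina1e* by 0.94 (adjusted p = 5.59e-06), whereas *Mup20* had a log2 fold change of 2.06 (adjusted p = 2.74e-06). Of 17 female-biased genes, 4 were tested, 1 of which fell and 2 rose, all at low levels. *Cyp17a1* fell by 2.49 (adjusted p = 0.00303), and *Cyp2c69* and *Cyp2c40* had log2 fold changes of 1.61 (adjusted p = 0.00551) and 0.90 (adjusted p = 0.0167, and 0.0593 without STING LKO replicate 1).

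Most markers of hepatocytes were lower in STING LKO, where over all tested genes 11.6% were lower and 11.5% higher. Of 20 hepatocyte markers, 17 fell and 0 rose, with a median log2 fold change of -0.61, and their summed FPKM ran from 15332 to 16690 in STING Loxp and from 11491 to 11682 in STING LKO. *Alb* fell by 0.27 (adjusted p = 0.00319) and *Hpx* by 1.33 (adjusted p = 4.24e-05), and *Apoa1* had a log2 fold change of -0.09 (adjusted p = 0.232). Of 19 tested macrophage and Kupffer cell markers, 10 had log2 fold changes above 0 and 9 below 0, with a median of 0.05. Past the test, 2 of them fell and 0 rose. The summed FPKM of the list ran from 72.3 to 92.4 in STING Loxp and from 61.3 to 70.9 in STING LKO. The most abundant were *Cd68* (mean FPKM 29.3), *Lyz2* (7.92) and *Mpeg1* (5.48), and the 2 that fell were *Cd68* and *Mpeg1*. For 15 endothelial markers the counts that fell and rose were 1 and 0, with sums from 39.5 to 43.7 and from 37.2 to 40.2, led by *Cdh5* (mean FPKM 8.50). For 12 stellate cell and fibroblast markers they were 0 and 1, with sums from 21.8 to 24.4 and from 24.1 to 25.9, led by *Ecm1* (8.10). For 5 cholangiocyte markers they were 3 and 1, with sums from 124 to 145 and from 65.7 to 77.2, led by *Cldn4* (83.4). The part of these marker differences in the results on conjugation genes was not tested.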

How the data were processed

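RNA of 6 primary hepatocyte samples was sequenced, 3 per group, and samples were grouped by the genotype in their labels. The authors deposited 1 table with raw read counts per gene and FPKM for each library. The submitters' processing notes name fastp, HISAT2, StringTie, edgeR and the genome build GRCm39. The tool that made the counts and its strand setting are not given in the sources used here, so reads that fit several paralogs may have been divided or dropped. The FPKM values deposited by the authors were used for levels per gene length and for the alternatives on FPKM.

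The 14151 genes that passed filterByExpr (minimum count 10) were compared with edgeR 4.0.16 in R 4.3.3 (TMM normalization, quasi-likelihood test of STING LKO against STING Loxp without covariates, all adjusted p-values by the Benjamini-Hochberg method over these genes, threshold 0.05). TMM factors ran from 0.973 to 1.02 and the biological coefficient of variation was 0.118. Normalized CPM are counts divided by the effective library size (library total times TMM factor) and scaled to CPM. Counts between replicate libraries differed by more than sampling noise (chi-square over its degrees of freedom 7.58 to 16.1). At 14726983 to 18536985 counted reads per library, genes with few counts could not be tested. A count of 0 means that no read was assigned at this depth. Of the 50-base windows of *Ugt2a1* and *Ugt2a2*, 97.0% and 93.6% occurred in another gene. Whether dropped reads gave their counts of 0 was not tested. Alternatives were DESeq2 1.42.0, RLE size factors, no filter on low counts, limma-trend (limma 3.58.1) on log2(FPKM + 1) and log2(FPKM + 0.1), the replicate number as a block, the study's criteria and each library left out in turn. Sequence sharing was counted as 50-base windows in GENCODE M21 transcripts, identities were computed with Biopython 1.88, and promoters came from RefSeq (GRCm38.p6), a build other than that of the table, from which no position was converted.

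In each family, the 3 tested genes with the highest mean FPKM and the 5 with the smallest adjusted p are given with every library's value. Any other conjugation gene past the threshold is given with its fold change, and of each related list at most the 3 genes with the smallest adjusted p under 0.05 are named, with *Ugdh*, *Papss2*, *Gclc*, *Nfe2l2*, *Ahr*, *Nr1i2* and *Nr1i3* whatever their p. Of each marker list at most the 3 most abundant genes are named. The genes and lists were chosen with earlier results of these data known. The 8 genes whose names match but that are not protein coding were left out.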

Additional observations from a re-analysis of the deposited data

How the results depend on the processing

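From 9 to 12 conjugation genes fell and from 4 to 7 rose under DESeq2, RLE size factors, no filter on low counts, the replicate block and limma-trend on FPKM, against 12 and 5 as reported. The study's criteria gave 3 and 0. Leaving out 1 library gave 9 to 12 lower and 3 to 6 higher. Of the 17 genes called, 12 were called under each of the 12 alternative fits, which do not include the study's criteria. The log2 ratio of the GST sum was 0.17 in normalized CPM and 0.33 in FPKM, and that of the MGST sum was 0.13 and, without TMM factors, 0.17. Without 1 library the sums ranged from -0.14 to -0.08 for UGT, -1.09 to -0.97 for SULT, 0.13 to 0.20 for GST and 0.12 to 0.15 for MGST.

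The direction turned for 7 log2 fold changes, none of which passed the test with all libraries, and the cause was not tested. *Ugt1a6a* was at -0.17 under the replicate block, -0.0037 and -0.21 under limma-trend (pseudocount 1 and 0.1) and, without 1 library, from -1.38 (without STING LKO replicate 2) to 0.96. *Ugt1a10* was at 0.0038 without the filter, 0.0073 under the replicate block, 0.019 and 0.042 under limma-trend and from -0.20 to 0.14 without 1 library. Without 1 library the ranges were -0.36 to 0.29 for *Ugt1a5*, -0.28 to 0.065 for *Ugt2b1*, -0.41 to 0.049 for *Sult1c2*, -0.030 to 0.076 for *Papss2* and -0.26 to 0.11 for *Sting1*.

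Without the filter, *Ugt3a2* (adjusted p = 0.0836), *Gstm4* (0.0622), *Gstp2* (0.0554) and *Gstt1* (0.0530) missed the threshold, and with limma-trend on FPKM *Mgst1* and *Ugt2a3* passed it. The libraries share replicate numbers. In their deviations from the group means, same-numbered libraries correlated at 0.120, 0.0834 and 0.0134, and libraries of different numbers at -0.131 to 0.0459. Replicates 1 and replicates 2 correlated most with their own number, but STING Loxp replicate 3 correlated more with STING LKO replicate 2 (0.0459) than with replicate 3. Whether the numbers mark pairs cannot be told from these values, and the main fit does not use them. With the replicate block 12 genes were lower and 6 higher. *Mgst1* (adjusted p = 0.0442) and *Gstm1* (0.0461) passed the threshold and *Sult1e1* (0.0562) did not, and the sums were -0.11 for UGT, -1.02 for SULT, 0.17 for GST and 0.13 for MGST. With 3 libraries per group, a gene that missed the threshold was not shown to be equal between the groups.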
